A study of Mus musculus with 3 samples.

Results

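The fibulins and hemicentins are a family of secreted matrix glycoproteins that share repeated EGF-like modules and a common C-terminal fibulin-type module. The gene names of the feature files held all 8 members sought, Fbln1, Fbln2, Fbln5, Fbln7, Efemp1, Efemp2, Hmcn1 and Hmcn2, among 32285 genes. They were chosen by symbol, with the levels of Fbln7 and Fbln1 in the tenocytes of depleted tendons already known. Those levels are therefore given as a description.

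Single-cell RNA sequencing (10x Genomics 3′ chemistry, version 3) was done on flexor digitorum longus (FDL) tendons, the tendons that flex the digits of the mouse hind paw, in 3 libraries of 16 pooled tendons each. The 6 M WT library came from Scx-Cre-; DTR F/+ mice and the 6 M DTR library from Scx-Cre+; DTR F/+ mice, whose Cre, driven by the promoter of Scleraxis (Scx), lets cells of that lineage carry the receptor for diphtheria toxin (DTR) and so be killed by it. Both received 5 daily injections of the toxin (DT) at 3 months of age, the age the labels give, and per the study's methods were harvested 3 months later, so that the 6 M DTR library holds what was left or had regrown after depletion. The 21 M B6 library came from C57BL/6J mice of 21 months with neither allele and no injection. All were labelled C57BL/6J. The libraries are called WT, DTR and B6 from here on. With 1 library per group there is no replicate and no test: intervals are exact 95% intervals for counting error only, and genotype, age, toxin and the digestion time (120 min for WT, 90 min for the other libraries) cannot be told apart.

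Fibulins link other matrix proteins to each other. Fbln5 and Efemp2 (fibulin-4) bring elastin and lysyl oxidases onto microfibrils, Fbln1 and Fbln2 bind fibronectin, nidogens, laminins and the proteoglycans versican and aggrecan, and Efemp1 (fibulin-3) binds the protease inhibitor Timp3. Fbln7 is a cell adhesion protein first known from teeth and cartilage, and the hemicentins Hmcn1 and Hmcn2 are very large proteins with long runs of immunoglobulin modules that fasten cells and basement membranes to one another.

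By the GENCODE annotation of mouse release 21 (GRCm38), the members lie apart on 7 chromosomes. The longest gene was Hmcn1 (chr1:150562524-150993435, minus strand, 430912 bases) and the shortest Efemp2 (chr19:5473954-5482517, plus strand, 8564 bases). Hmcn2 (chr2:31314415-31460738) and Fbln7 (chr2:128862981-128897034) share a chromosome, both on the plus strand. Fbln1 spans chr15:85205949-85286535, Fbln2 chr6:91212455-91272540, Efemp1 chr11:28853204-28926743 (all plus strand) and Fbln5 chr12:101746565-101819055 (minus strand). No member overlapped another gene on its own strand.

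The promoters of Fbln1, Fbln7 and Hmcn1 are shown because Fbln1 and Fbln7 are the members the choice rested on and Hmcn1 was the other member far from its WT level in tenocytes of DTR, and because Scleraxis, the factor whose lineage was depleted, belongs to the basic helix-loop-helix factors, which bind E-boxes. Each is the 250 bases before a RefSeq start site (GRCm38.p6), written 5′ to 3′ on the gene's strand, with each E-box (CANNTG, its own reverse complement, so that both strands are read at once) in capitals. They cover chr15:85205699-85205948 (plus), chr2:128863682-128863931 (plus) and chr1:150993436-150993685 (minus).
Fbln1: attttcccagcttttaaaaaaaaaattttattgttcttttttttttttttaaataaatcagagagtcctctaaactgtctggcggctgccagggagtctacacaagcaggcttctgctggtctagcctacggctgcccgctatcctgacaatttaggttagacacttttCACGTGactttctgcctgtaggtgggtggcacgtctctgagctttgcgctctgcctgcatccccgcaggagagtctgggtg
Fbln7: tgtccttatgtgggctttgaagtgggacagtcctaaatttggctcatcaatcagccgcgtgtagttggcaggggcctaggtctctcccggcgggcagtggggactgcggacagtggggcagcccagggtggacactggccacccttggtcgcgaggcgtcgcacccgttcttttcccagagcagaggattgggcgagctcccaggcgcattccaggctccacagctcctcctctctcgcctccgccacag
Hmcn1: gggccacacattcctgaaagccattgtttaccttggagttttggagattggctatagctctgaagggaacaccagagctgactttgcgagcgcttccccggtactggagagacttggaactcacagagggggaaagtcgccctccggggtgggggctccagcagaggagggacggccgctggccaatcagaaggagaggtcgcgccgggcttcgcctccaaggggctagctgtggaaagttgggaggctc
This Fbln1 window held 1 E-box (CACGTG), and the windows of Fbln7 and Hmcn1 held none. All 8 members matched RefSeq promoters, with 12 start sites. Fbln2, Efemp1 and Hmcn2 held 1 E-box each, Efemp2 none at any of its 3 sites, Fbln5 1 at 1 of its sites, and the other Fbln1 site 2. Of 32841 windows of this length over all genes, 21750 (66.2%) held at least 1, so a match here is common.

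After the study's filter (1000 to 5000 genes and at most 10% mitochondrial counts per cell), 8357, 6554 and 4798 cells remained in WT, DTR and B6, with median UMI counts (counted RNA molecules) of 13008, 12328 and 12914. Cells were put into classes by markers that include no member. Tenocyte-like cells (Tnmd, Scx, Fmod and 5 others), the resident cells of the tendon body, numbered 4815, 2486 and 777, which is 57.6%, 37.9% and 16.2% of the cells. Epitenon-like cells (Pi16, Dpp4, Clec3b and 5 others), named for the sheath around the tendon, numbered 1149, 1115 and 2461. The median tenocyte-like cell held 7, 7 and 6 of its 8 markers, and the median epitenon-like cell 6 of its 8 in each library. Cell quality differed: 27.6%, 43.1% and 56.5% of all barcodes were over the mitochondrial limit. The median mitochondrial share was 2.80%, 2.87% and 5.56% in tenocyte-like cells and 2.55%, 2.52% and 4.48% in epitenon-like cells. A limit of 5% left 4487, 2235 and 295 tenocyte-like cells. Of the tenocyte-like cells, 3008, 812 and 302 were called female and 1095, 1188 and 263 male by their sex-linked genes. The mix of sexes thus differed between the libraries as well. The libraries shared 13 to 15 barcodes pairwise among kept cells. The summed level of 7 genes of the dissociation response (Fos, Jun, Egr1 and others), which cells switch on during digestion, was 4183, 6771 and 10882 CPM (counts of a gene per 1e6 counts) in tenocyte-like cells and 6099, 6563 and 12092 CPM in epitenon-like cells; its part in the values that follow was not tested.

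Levels are CPM, the UMIs of a gene scaled to the summed UMIs of all cells of a class in a library. They are compared between cells and libraries for 1 gene at a time, not between genes. Shares of cells with a UMI are given after each cell was thinned to 2000 UMIs. Macrophage-like and T cell-like cells, which are not known to make fibulins in quantity, serve as the background that free RNA can give.

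Fbln1, which binds fibronectin, nidogen and versican in basement membranes and loose matrix, was a tenocyte gene in these tendons. In tenocyte-like cells its level was 740 CPM (95% interval, 734 to 747) in WT, 525 CPM (517 to 533) in DTR and 858 CPM (839 to 877) in B6. In epitenon-like cells it was 84.7, 33.8 and 137 CPM. The library order was thus the same in both classes, with DTR lowest and B6 highest, and the intervals did not overlap. Tenocyte-like cells held 88.5%, 84.9% and 52.5% of all Fbln1 UMIs of their libraries. After thinning, 68.2%, 52.5% and 74.9% of tenocyte-like cells had a UMI. Macrophage-like cells were at 5.21, 5.14 and 10.1 CPM.

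Fbln2, found in basement membranes and along elastic fibres, was spread over the stromal classes. It stood at 807, 635 and 799 CPM in epitenon-like cells (WT, DTR, B6) and at 411, 407 and 498 CPM in tenocyte-like cells. Endothelial-like cells (294, 225 and 390 CPM) and nerve-like cells (209, 299 and 171 CPM) followed, and macrophage-like cells were at 9.50, 11.3 and 25.4 CPM. In WT the intervals of epitenon-like, tenocyte-like and endothelial-like cells lay apart from one another.

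The elastic fibre pair Fbln5 and Efemp2 was present at low and broad levels. Fbln5, which tethers elastin to cells and microfibrils, was highest in nerve-like cells of WT and DTR (both 122 CPM) and in epitenon-like cells of B6 (127 CPM). In epitenon-like cells its level was 64.8, 97.8 and 127 CPM, whereas in tenocyte-like cells it was 35.6, 38.2 and 37.3 CPM. Efemp2, which brings lysyl oxidase to elastin, ranged from 34.0 to 41.3 CPM in epitenon-like and from 17.1 to 26.2 CPM in tenocyte-like cells. In WT the intervals of nerve-like, epitenon-like and mural-like cells (51.9, 34.0 and 31.5 CPM) overlapped from each to the next, and mural-like cells were 1.49-fold above tenocyte-like cells (1.05 to 2.07).

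Efemp1 and both hemicentins marked the epitenon side. Efemp1 reached 149, 131 and 352 CPM in epitenon-like cells but 1.21, 1.31 and 7.56 CPM in tenocyte-like cells, which is at or under the macrophage-like levels of 1.97, 1.67 and 10.7 CPM. Nerve-like cells also held Efemp1, at 83.8, 56.2 and 149 CPM. Hmcn1 was at 74.9, 144 and 55.2 CPM in epitenon-like cells, and endothelial-like cells came next with 34.3, 32.4 and 27.5 CPM. Hmcn2 was at 177, 119 and 221 CPM in epitenon-like cells, and in WT and DTR the mural-like cells came next with 33.2 and 36.2 CPM. In tenocyte-like cells of WT and DTR it was at 4.04 and 5.08 CPM, beside 3.01 and 1.88 CPM in macrophage-like cells. Epitenon-like cells held 84.6% to 92.7% of all Efemp1 UMIs, 68.5% to 85.4% of those of Hmcn1 and 78.8% to 88.3% of those of Hmcn2.

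Fbln7 had no fixed home across the libraries. In tenocyte-like cells its level was 4.76 CPM (4.25 to 5.32) in WT, 82.5 CPM (79.4 to 85.7) in DTR and 26.0 CPM (22.8 to 29.4) in B6. In epitenon-like cells it was 11.9, 21.2 and 8.08 CPM. Fbln7 was thus higher in epitenon-like than in tenocyte-like cells of WT and lower in both other libraries. Macrophage-like cells gave 0, 0.903 and 0.577 CPM, below the tenocyte-like level of every library.

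**Figure D1:**
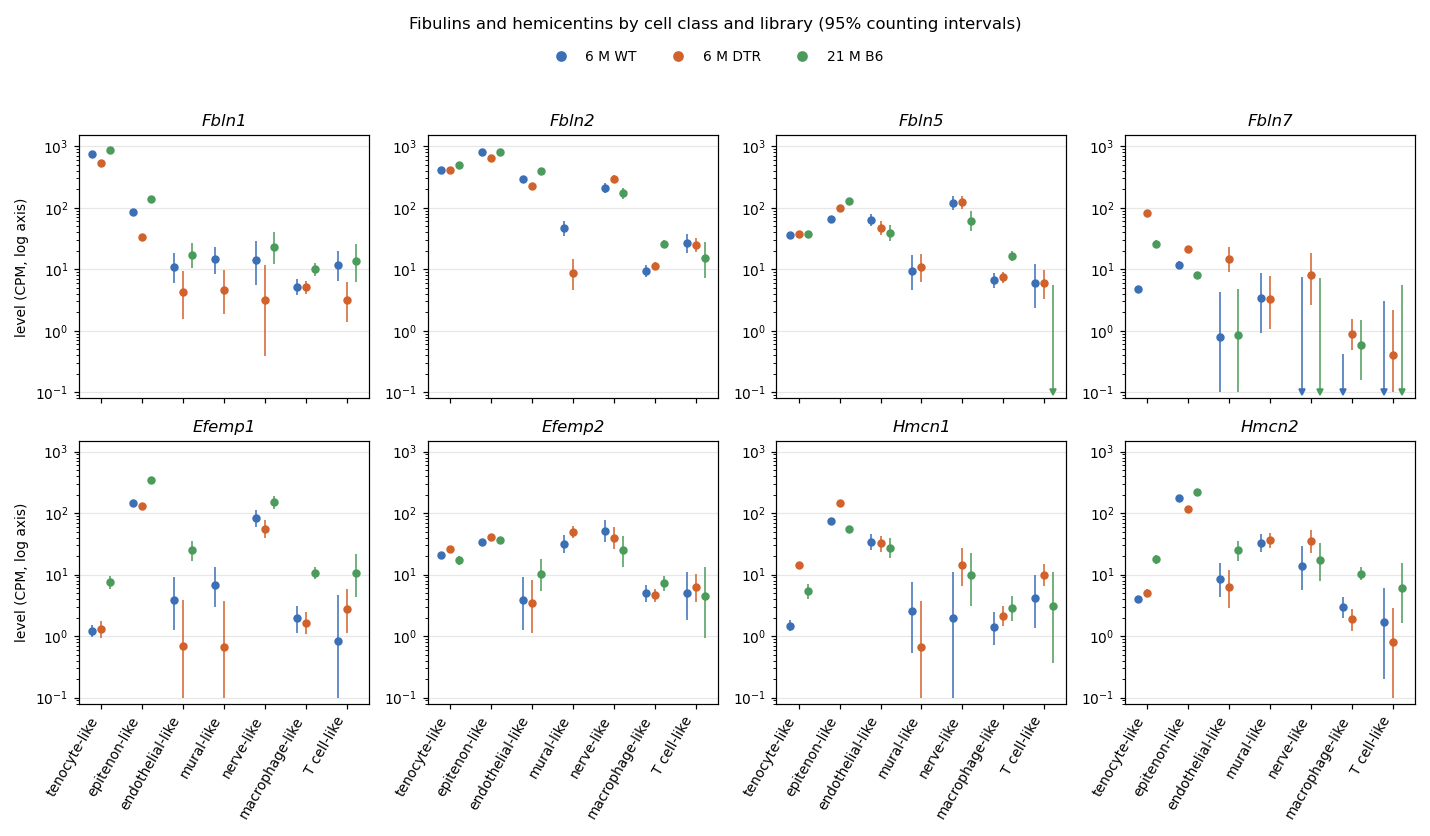
Level of each member (CPM, log axis) by cell class and library, for classes of at least 50 cells. Points are levels and bars their 95% counting intervals, drawn down to 0.1 CPM, triangles mark classes with 0 UMIs, and mural-like cells of B6 (39 cells) are not plotted. Fbln1 peaks in tenocyte-like cells, Efemp1, Hmcn1 and Hmcn2 in epitenon-like cells, and Fbln7 in tenocyte-like cells runs from 4.76 CPM in WT to 82.5 CPM in DTR.

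Set side by side in WT, epitenon-like cells exceeded tenocyte-like cells at least 2-fold for 4 of the 8 members (Fbln7, Efemp1, Hmcn1 and Hmcn2), and were lower by that fold for Fbln1. Those 4 were under 5 CPM in tenocyte-like cells and entered the count through epitenon-like cells, so the count is a description only. Over 9716 genes at 5 CPM or more, 12.1% were 2-fold higher and 4.68% 2-fold lower. The median log2 ratio over the 8 members was 1.15. The ratio was 123 (98.6 to 156) for Efemp1, 50.6 (41.2 to 62.9) for Hmcn1 and 43.6 (38.5 to 49.7) for Hmcn2, beside 54.4 for the gate marker Pi16. It was 0.114 for Fbln1, 1.96 for Fbln2, 1.82 for Fbln5 and 1.61 for Efemp2. For Efemp1, Hmcn1 and Hmcn2 the tenocyte-like levels (1.21, 1.48 and 4.04 CPM) stood near the macrophage-like levels (1.97, 1.39 and 3.01 CPM). Their ratios are thus taken over a level near background. The Fbln7 ratio of 2.51 depended on a small group of cells: without cluster 8 (described further on) its log2 value was 0.20 in place of 1.33, and in cells called male by their sex-linked genes it was -0.78.

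The comparison of DTR with WT asks how the cells left after Scleraxis-lineage depletion differ. In tenocyte-like cells, Fbln7 and Hmcn1 were past 1.5-fold higher among the 7 members at 5 CPM or more, and none was lower by that fold. Of 9375 genes at 5 CPM or more, 8.29% were higher and 6.07% lower by 1.5-fold. As the rule used this contrast for Fbln7 and Fbln1, nothing is read from these counts.

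Fbln7 was 17.3-fold higher (15.4 to 19.5). The difference lay in how many cells had it: 88 of 4815 tenocyte-like cells of WT held 312 UMIs, and 831 of 2486 cells of DTR held 2711 UMIs. The mean per positive cell was 3.55 and 3.26 UMIs. After thinning, 0.644% (0.438 to 0.913) and 14.2% (12.9 to 15.7) of the cells were positive, beside 0 of 518 macrophage-like cells of WT, which allows a share of up to 0.579% by a limit of 3 cells and up to 0.71% by the exact interval, and 0.097% of those of DTR. By share, then, WT tenocyte-like cells were not separable from background at this depth, while by level (4.76 CPM) they lay above the macrophage-like upper bound of 0.427 CPM. The positive cells of DTR had less epitenon marker RNA than the negative cells (532 against 888 CPM) and more tenocyte marker RNA (19501 against 15141 CPM). Both sets were pooled over clusters (described further on). In cluster 9 of DTR, Fbln7 was at 8.56 CPM. The epitenon markers there were at 1124.5 CPM, against 837 and 578 CPM in clusters 0 and 1. The part of the cluster mix in this contrast was not tested.

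Hmcn1 went from 1.48 CPM (1.2 to 1.81) in WT to 14.6 CPM (13.3 to 15.9) in DTR, 9.85-fold (7.90 to 12.4). The WT level was that of macrophage-like cells (1.39 CPM), and the DTR level was above theirs (2.15 CPM). T cell-like cells, the other background class, were at 4.21 CPM in WT and 9.95 CPM (6.44 to 14.7) in DTR. Their DTR interval overlapped that of tenocyte-like cells, so by level DTR was not separable from background against this class. By share the intervals lay apart. After thinning, 2.65% (2.06 to 3.37) of tenocyte-like and 0.350% (0.00885 to 1.93) of T cell-like cells of DTR were positive. The 25 UMIs of the T cell-like cells lay in 2.80% of those cells before thinning. Positive tenocyte-like cells numbered 76 in WT and 253 in DTR, with 97 and 479 UMIs. The positive cells of DTR held about as much epitenon marker RNA (742 CPM) as the negative cells (771 CPM), while in WT the positive cells held more (1558 against 970 CPM). They held less tenocyte marker RNA than the negative cells in both DTR (12795 against 17058 CPM) and WT (13462 against 15352 CPM).

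Fbln1 was lower in DTR, at 0.709 times the WT level (0.697 to 0.722), which is less than a 1.5-fold difference. Scaling by TMM factors, which moved the median log2 ratio of all genes from 0.05 to -0.07, put it past that fold (log2 -0.61 against -0.50), and it was -0.22 in cells called female and -0.69 in cells called male. Fbln2 was level (0.989, 0.969 to 1.01). Efemp2 was 1.24-fold (1.14 to 1.35) and Hmcn2 1.26-fold (1.03 to 1.53) higher, the latter turning to a log2 value of -0.03 with no upper limit on genes per cell and -0.12 in cells called male. Within clusters 0, 1 and 9 (described further on) the Hmcn2 ratio was 0.703, 0.776 and 1.05, each with an interval that included 1. Fbln5 was 1.07-fold, a sign that TMM scaling turned (log2 0.10 against -0.02). Efemp1 was under 5 CPM in both libraries.

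In epitenon-like cells of DTR, 3 of 8 members were past 1.5-fold higher (Fbln5, Fbln7 and Hmcn1) and Fbln1 was past it lower. Of 9572 genes, 2.1% were higher and 4.52% lower by that fold. The median log2 ratio was 0.05 for the members and 0.01 for all genes. Fbln1 was at 0.399 times the WT level (0.362 to 0.438), from 84.7 to 33.8 CPM, a smaller ratio than in tenocyte-like cells. Hmcn1 was 1.93-fold higher (1.80 to 2.06), with 13.8% and 22.6% of thinned cells positive. Fbln7 was 1.77-fold (1.5 to 2.11) and Fbln5 1.51-fold (1.40 to 1.63) higher, the latter at the edge of the fold. Hmcn2, the other hemicentin, was at 0.673 (0.637 to 0.712), and Fbln2 at 0.787. The Fbln7 value depended on the cells taken: log2 0.83 over all cells was 0.11 in cells called female, 2.71 in cells called male and 1.72 without cluster 8.

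The comparison of B6 with WT asks how tendons of old mice differ from those of young adults. In tenocyte-like cells, 4 of 8 members were past 1.5-fold higher (Fbln7, Efemp1, Hmcn1 and Hmcn2) and none lower. Those 4 were under 5 CPM in WT (4.76, 1.21, 1.48 and 4.04 CPM) and entered the count only through B6. That favours a higher call, so this count and the median of the members are a description only. Of 9163 genes, 6.55% were higher and 18.1% lower by that fold, and the median log2 ratio was 1.07 for the members and -0.28 for all genes (-0.04 after TMM scaling, which moves every value up by the same amount). Fbln7 was 5.45-fold higher (4.59 to 6.46), with 3.99% of thinned cells positive. Hmcn1 was 3.62-fold higher (2.53 to 5.13), from 51 UMIs in 777 cells, at 5.36 CPM beside 2.89 CPM in macrophage-like cells. Only 9, 11 and 3 of these UMIs lay in clusters 0, 1 and 9 (described further on). The Hmcn1 ratios there were 2.29, 2.30 and 2.24, each with an interval that included 1. Hmcn1-positive cells of B6 held more epitenon marker RNA than the negative cells (1819 against 1211 CPM). Efemp1 was 6.27-fold (4.5 to 8.75) and Hmcn2 4.36-fold (3.58 to 5.32) higher, but macrophage-like cells of B6 stood at 10.7 and 10.4 CPM beside tenocyte-like levels of 7.56 and 17.7 CPM. The Efemp1 value is thus at the background level and is not read as tenocyte expression. Of the 168 Hmcn2 UMIs in tenocyte-like cells of B6, only 46, 33 and 21 lay in clusters 0, 1 and 9. The Hmcn2 ratios there were 3.30 (2.25 to 4.78), 1.72 (1.11 to 2.63) and 5.98 (3.44 to 10.1). The summed epitenon markers in tenocyte-like cells were 981 CPM in WT, 768 CPM in DTR and 1242 CPM in B6; their part in the values was not tested. Fbln1 (1.16), Fbln2 (1.21), Fbln5 (1.05) and Efemp2 (0.811) were within 1.5-fold.

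In epitenon-like cells of B6, Fbln1, Fbln5 and Efemp1 were past 1.5-fold higher, and no member was lower by that fold. Of 9500 genes, 4.18% were higher and 10.5% lower, and the median log2 ratio was 0.22 for the members and -0.26 for all genes (0.03 after TMM scaling). Efemp1 was 2.37-fold higher (2.27 to 2.47), at 352 against 149 CPM, with 38.7% and 20.3% of thinned cells positive. Fbln5 was 1.95-fold (1.83 to 2.08) and Fbln1 1.62-fold (1.53 to 1.72) higher. Hmcn2 was 1.25-fold higher, and Hmcn1 (0.737) and Fbln7 (0.677) were lower. Without cluster 8 the Fbln7 log2 ratio turned from -0.56 to 0.23, and it passed the fold with the top doublet scores left out (-0.72) and with a stricter gate (-0.70). Hmcn1 passed it in cells called male (log2 -0.87) and Hmcn2 with TMM scaling (0.62), and Fbln1 did not pass it with classes taken from clusters (0.54). Fbln2 (0.990) and Efemp2 (1.07) were close to level, and TMM scaling moved Fbln2 from a log2 value of -0.01 to 0.28.

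**Figure D2:**
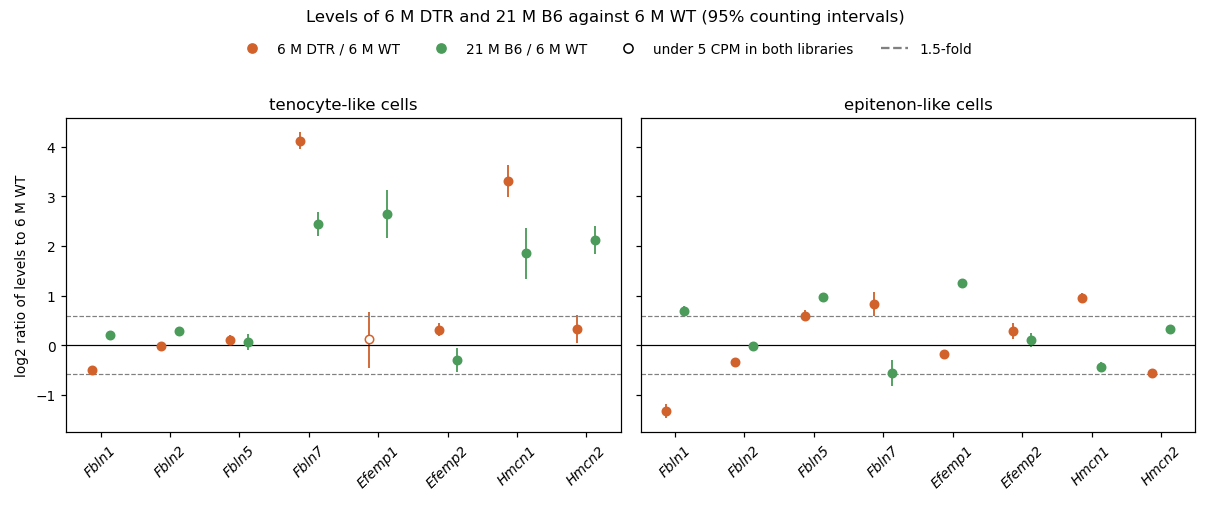
Log2 ratio of each member in DTR and in B6 to WT, in tenocyte-like and epitenon-like cells. Points are ratios, bars their 95% counting intervals, dashed lines 1.5-fold, and the open circle is Efemp1, under 5 CPM in both libraries. Fbln7 stands furthest from 0 in tenocyte-like cells of DTR (17.3-fold), and Fbln1 in epitenon-like cells lies below 0 in DTR (0.399) and above it in B6 (1.62). Both comparisons share the WT library.

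Clustering of all cells without the 8 members split the tenocyte-like cells into cluster 0 (led by Saa2, Saa3 and Saa1, acute phase proteins, and Mmp3), cluster 1 (led by Mstn, the growth inhibitor myostatin, with Cemip, Edil3 and Acan) and cluster 9 (led by Gm41724, Slurp1, Npy and S100g). Fbln7, though not used in the clustering, ranked 3 among the leading genes of cluster 1. It was at 82.6 CPM there, 9.40-fold over the mean of the other clusters. Cluster 1 held 1002, 1522 and 253 tenocyte-like cells of WT, DTR and B6, cluster 0 held 1964, 322 and 368, and cluster 9 held 1777, 603 and 125. Cluster 9, which was 36.9%, 24.3% and 16.1% of the class, was low in the gate marker Tnmd. It had Tnmd at 109, 105 and 123 CPM, beside 584 to 988 CPM in clusters 0 and 1. Mstn, which leads cluster 1, itself stood at 60.7, 467 and 96.3 CPM there, so the sizes are not compared between libraries.

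Fbln7 was higher in DTR within each cluster. In cluster 1 it stood at 15.6 CPM in WT, 122 CPM in DTR and 49.9 CPM in B6. The ratio of DTR to WT was 7.81 (6.66 to 9.21) there, 14.3 (11.6 to 17.6) in cluster 0 and 36.0 (15.8 to 101) in cluster 9, the last from 6 UMIs in WT. In cluster 9 the levels stayed low, at 0.237, 8.56 and 2.48 CPM.

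Hmcn1 and Fbln1 differed most in cluster 1. Hmcn1 was at 1.81, 22.5 and 4.15 CPM there, 12.4-fold higher in DTR (7.87 to 20.9). In cluster 0 it was at 0.842, 0.839 and 1.93 CPM, a ratio of 0.996 (0.251 to 2.90) from 4 UMIs in DTR. In cluster 9 it was at 0.831, 2.51 and 1.86 CPM, 3.02-fold higher in DTR (1.58 to 5.77), from 22 UMIs in DTR and 21 in WT. Fbln1 in cluster 1 was at 963, 492 and 894 CPM, so that DTR was at 0.511 times WT (0.497 to 0.526). In clusters 0 and 9 the same ratio was 0.927 and 0.928, with levels of 911, 845 and 997 CPM and of 472, 438 and 528 CPM. The Fbln1 interval of cluster 1 lay apart from both others. The dissociation response of cluster 1 was 8651, 7635 and 20258 CPM in WT, DTR and B6, and its epitenon markers were 841, 578 and 974 CPM. From WT to DTR the response went from 2838 to 5690 CPM in cluster 0 and from 3781 to 5536 CPM in cluster 9. The part of either in the member levels was not tested.

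Fbln2 and Fbln5 differed between cluster 9 and the other clusters in every library. Fbln2 was at 620, 633 and 1093 CPM in cluster 9, against 272 to 368 CPM in cluster 0 and 282 to 325 CPM in cluster 1. Fbln5 had the opposite order, at 13.6 to 18.0 CPM in cluster 9 and 37.9 to 59.5 CPM in the others. Fbln2 also differed between libraries in cluster 9, with B6 at 1.76 times WT (1.68 to 1.85). The epitenon markers of cluster 9 were 1208, 1124.5 and 2147 CPM in WT, DTR and B6, and their part in this was not tested.

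**Figure D3:**
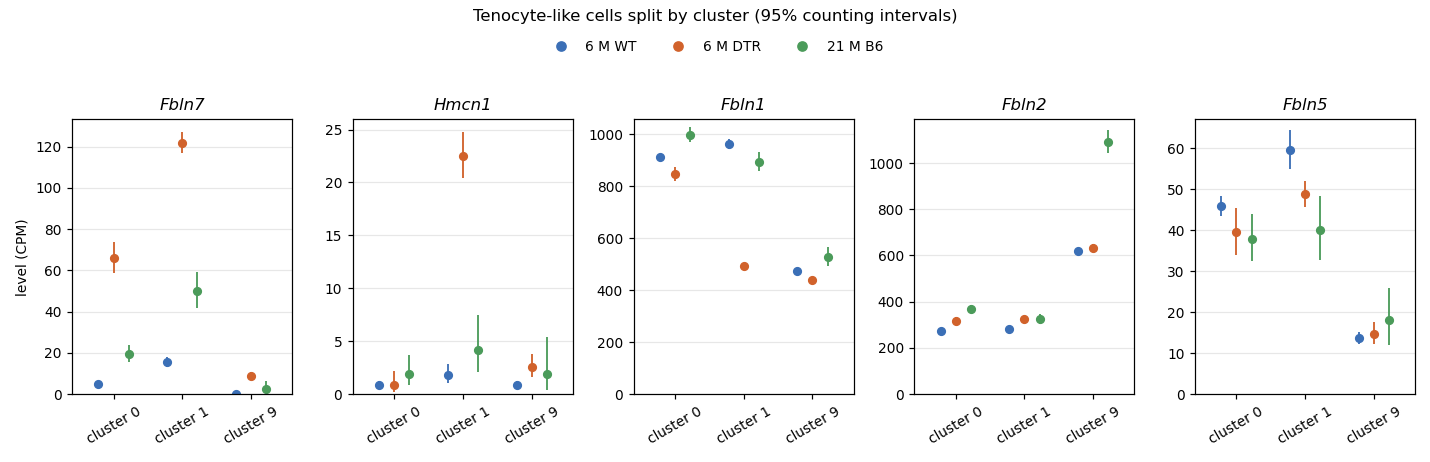
Levels (CPM) of Fbln7, Hmcn1, Fbln1, Fbln2 and Fbln5 in tenocyte-like cells of clusters 0, 1 and 9 by library, with 95% counting intervals. Fbln7 is higher in DTR in every cluster, Fbln1 is lower in DTR mainly in cluster 1 (492 against 963 CPM), and Fbln2 is higher in cluster 9 of every library.

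The epitenon-like cells fell mostly into cluster 3 (led by Pi16, Cyp2f2, Inmt, Ccl8 and Gdf10; 92%, 89.3% and 93.7% of them). A small remainder of 63, 94 and 141 cells lay in cluster 8, which was led by Col22a1, Clic5, Hhip and Bglap2, had very high Prg4 (lubricin, the lubricant of gliding surfaces, at 53967 to 75758 CPM) and almost no Pi16 (0.818 to 11.3 CPM). It is left without a name. Its members differed from those of cluster 3. Fbln5 was at 308, 397 and 350 CPM in cluster 8 against 47.8, 64.2 and 110 CPM in cluster 3. Fbln7 was at 101, 50.5 and 30.4 CPM in cluster 8 against 5.5, 17.5 and 6.33 CPM in cluster 3.

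The Fbln7 differences thus had opposite signs within the epitenon gate. In cluster 3 the ratio of DTR to WT was 3.19 (2.50 to 4.09), and in cluster 8 it was 0.498. Fbln1, Fbln2 and both hemicentins were low in cluster 8: Fbln1 was at 3.01 to 5.73 CPM, Fbln2 at 57.3 to 128 CPM, Hmcn1 at 5.73 to 16.8 CPM and Hmcn2 at 3.27 to 28.2 CPM. Efemp1 was present in both clusters, at 135 to 155 CPM in cluster 8 and 152, 133 and 369 CPM in cluster 3. Fbln5 in cluster 3 was 1.34-fold higher in DTR, under the fold it passed over the whole gate, and 2.29-fold higher in B6. There, Fbln1 was at 88.1, 35.0 and 147 CPM and Hmcn1 at 81.3, 160 and 59.1 CPM.

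**Figure D4:**
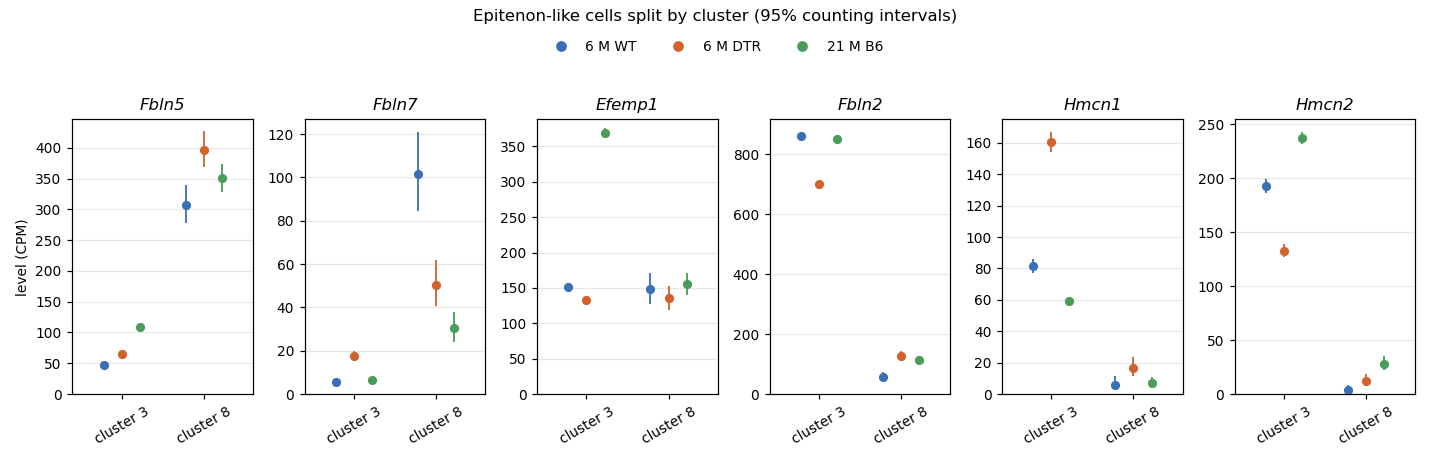
Levels (CPM) of Fbln5, Fbln7, Efemp1, Fbln2, Hmcn1 and Hmcn2 in epitenon-like cells of clusters 3 and 8 by library, with 95% counting intervals. Fbln5 and Fbln7 are higher in cluster 8, Fbln2 and both hemicentins in cluster 3, and Efemp1 is higher in B6 in cluster 3 (369 CPM) but not in cluster 8 (155 CPM).

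Smaller groups of cells, set by markers known from earlier results of these libraries, also differed in the members. Tenocyte-like cells with at least 2 of Slurp1, Serpinb7 and Sema3e (847, 234 and 31 cells) had more Fbln2 than the rest in each library, at 769 against 327, 795 against 360 and 1398 against 454 CPM. They had less Fbln1, at 0.574, 0.667 and 0.323 times the level of the rest, and less Fbln5 (0.379, 0.325 and 0.176). Tenocyte-like cells with Kera and Ucma, genes of corneal and cartilage matrix (107 and 27 cells in WT and DTR), had more Fbln5 (2.05 and 1.56 times) and less Fbln2 (0.542 and 0.797).

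Within the epitenon-like cells, those with both Pi16 and Dpp4 (164, 172 and 584 cells), which are also gate markers, had more Efemp1, at 276 against 125, 301 against 102 and 586 against 272 CPM. Cells with both Gdf10 and Inmt (60, 32 and 420 cells) had more Fbln1, at 248 against 76.3, 164 against 30.2 and 295 against 103 CPM. Each of these differences had the same direction in all 3 libraries. Cells with both Krtdap and Ccn3 had 2.38 times the Fbln7 of the rest in WT, and 0.840 and 1.07 times in DTR and B6.

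Members were also compared cell by cell, after thinning. In tenocyte-like cells of DTR, 48.9% of 354 cells with Fbln7 and 53.1% of 2132 cells without it had Fbln1, and the intervals overlapped. Fbln5 was found in 12.1% and 7.50% and Hmcn1 in 4.24% and 2.39% of the same cells, and the intervals overlapped for Hmcn1 but not for Fbln5. These cells were pooled over clusters. In DTR, Fbln7 was at 66.0, 122 and 8.56 CPM and Fbln5 at 39.4, 48.7 and 14.7 CPM in clusters 0, 1 and 9. The part of the cluster mix in these shares was not tested. In epitenon-like cells, Hmcn2 was found in 34.2% of cells with Hmcn1 and 22.8% of those without in WT, and in 26.6% and 17.1% in DTR. In B6 it was found in 34.1% and 29.2%, with overlapping intervals. Fbln5 was found in 18.9% of cells with Efemp1 and 9.85% of those without in WT. The direction was the same in DTR (21.2% and 14.1%, intervals overlapping) and B6 (23.9% and 17.7%).

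The proteins that fibulins and hemicentins bind or assemble were taken as a list of 38 genes. The list was chosen with earlier results of these data known, so its counts and medians are a description only. In tenocyte-like cells, 34 were at 5 CPM or more in DTR or WT, with 12 past 1.5-fold higher and 8 lower, beside 8.29% and 6.07% of all genes. The median log2 ratio was 0.32, and 0.05 for all genes. Of the 13 basement membrane and proteoglycan genes counted, 7 were higher and 2 lower. Col4a2, a chain of the collagen IV network, was at 116 against 49.5 CPM, and Acan (aggrecan) at 33.0 against 9.87 CPM, while Vcan (versican) was at 166 against 278 CPM. Acan was among the leading genes of cluster 1 and Vcan among those of cluster 9. No partner ratio was taken within clusters, so the part of the cluster mix was not tested. Of the 16 elastic fibre genes counted, 4 were higher and 4 lower. Ltbp2, a microfibril protein that binds Fbln5, was at 82.3 against 26.0 CPM, Loxl1, an elastin cross-linking enzyme, at 21.7 against 7.87 CPM, and Eln (elastin itself) at 4.81 against 13.1 CPM. Of the 5 protease-linked genes, Adamts5 was higher (1.74-fold), and Adamts1 (0.626) and Adamts4 (0.406) were lower.

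In B6 the partners of tenocyte-like cells split into 8 higher and 5 lower of 33, beside 6.55% and 18.1% of all genes. TMM scaling, which moves every ratio up here, gave 13 higher and 4 lower. No share of all genes is given at that scaling, so nothing is read from those counts. Loxl1 (3.62-fold) and Mfap2 (3.15-fold), a microfibril protein, were higher. So were Adamts1 (2.49-fold) and Adamts4 (2.17-fold), whose ratios in DTR were 0.626 and 0.406, with the WT library shared by both comparisons. Acan came from 1 UMI, a ratio of 0.0106 (0.000269 to 0.0595). In epitenon-like cells, 2 of 33 partners were higher and 4 lower in DTR, beside 2.1% and 4.52% of all genes. There Lamb1, a laminin chain, was 2.16-fold and Fn1, fibronectin, 1.91-fold higher, and Eln was at 0.294. In B6, 3 of 35 were higher and 6 lower, beside 4.18% and 10.5% of all genes. TMM scaling, which moves every ratio of B6 up in this class as well, gave 7 and 0. Again no share of all genes is given at that scaling, and nothing is read from those counts.

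**Figure D5:**
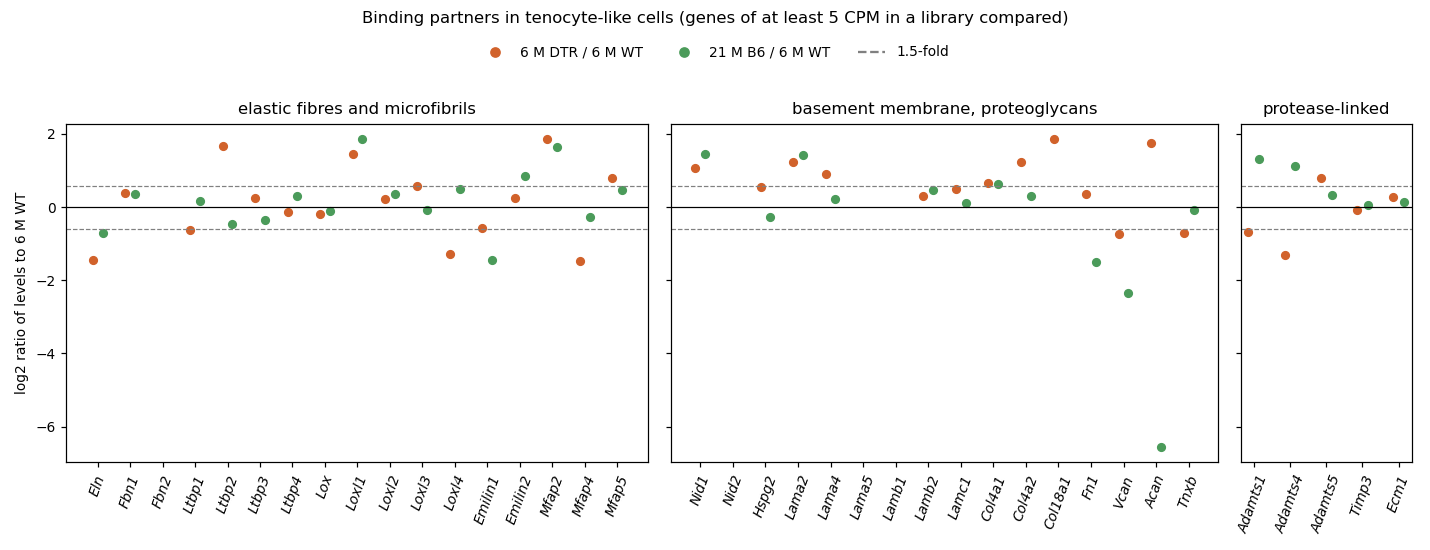
Log2 ratio to WT of the partner genes in tenocyte-like cells of DTR and B6, in 3 panels (elastic fibre, basement membrane and proteoglycan, protease-linked), for genes at 5 CPM or more. Points are ratios, drawn without intervals, and dashed lines are 1.5-fold. Ltbp2, Col4a2 and Acan lie above 0 in DTR, and Acan lies far below 0 in B6 (0.0106 from 1 UMI).

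Over 20 profiles of a class in a library, which share libraries and so are not independent, the genes most like each member in log2(CPM + 1) were taken from 6221 genes. Fbln1 went most closely with Loxl4, Itgbl1 and Gpx3 (Pearson r from 0.926 to 0.931), and Fbln2 with Ackr2, S100a16 and Ntn1 (0.941 to 0.947). Fbln5 went with Plscr4, Prnp and Mtch1 (0.924 to 0.966), and Efemp2 with Lama2, Sox5 and Fat1 (0.954 to 0.957). Efemp1 went with Cyp2f2, Entpd2 and Abca8a (0.915 to 0.934). Hmcn1 went with Ptgs1, Cd34 and Nsg1 (0.866 to 0.896) and Hmcn2 with Ccn3, Ugdh and Has2 (0.910 to 0.951), where Cd34 and Ccn3 are epitenon gate markers. Fbln7 had the weakest likeness, with Scara3, Gas1 and Ecm2 (0.816 to 0.820). Between members, r was 0.837 for Fbln2 and Fbln5, 0.768 for Efemp1 and Hmcn2 and 0.062 for Fbln7 and Efemp1.

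Summed over all kept cells, the members followed the make-up of the libraries as well as these levels. Fbln1 was at 483, 236 and 236 CPM in WT, DTR and B6, although its tenocyte-like level was highest in B6, where tenocyte-like cells were 16.2% of the cells. Efemp1 was at 27.8, 31.1 and 213 CPM, Hmcn2 at 34.4, 31.4 and 140 CPM and Hmcn1 at 15.5, 43.8 and 36.2 CPM, beside epitenon-like shares of 13.7%, 17% and 51.3%. Fbln7 remained highest in DTR (5.48, 43.4 and 11 CPM).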

How the data were processed

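The deposited files held raw UMI counts per gene and barcode, which the authors made with Cell Ranger (2.1.1 per the submitters' processing notes, 6.0.1 per the file headers). The genome build is not given in the sources used here. Counts were read with Python 3.11.15 (scanpy 1.11.5, numpy 2.4.6, scipy 1.17.1, pandas 2.3.3), and cells outside 1000 to 5000 genes or above 10% mitochondrial counts were left out. The totals over all barcodes were 148149903, 123918145 and 92707026 UMIs in WT, DTR and B6. A cell was tenocyte-like with at least 5 of 8 tenocyte markers and 2-fold more tenocyte than epitenon marker RNA, epitenon-like with at least 4 of 8 epitenon markers and the reverse, and of another class by that class's markers. Cells that met several classes were set apart, and 13.4%, 13.1% and 11.4% of cells met none. These thresholds were set after marker counts had been seen. The members, marker lists, subsets and partners were chosen with earlier results of these data known. Leiden clusters (20 principal components, resolution 0.3, 2000 variable features) used no member. Named genes were the 8 members, partners past 1.5-fold, the 3 genes most like each member, and marker and subset genes.

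Counts were summed per class and library, as CPM, with exact Poisson intervals for levels, exact conditional binomial intervals for ratios and exact binomial intervals for shares, all at 95%. UMIs remove PCR copies, so these intervals cover counting error only. No p-value was computed. Genes at 5 CPM in 1 of the profiles compared were counted. Doublets were not removed in the values reported. Scrublet's own threshold called 2, 7 and 1 cells and had not worked, so the alternative left out the 5% of cells with the highest scores. TMM factors came from edgeR 4.0.16 (R 4.3.3), for scaling only. Other alternatives were a 5% mitochondrial limit, no upper limit on genes, classes from clusters, a stricter gate (8-fold), cells of 1 sex, a minimum of 20 CPM, and thinning to 1000 UMIs or 2 UMIs for a positive cell. Values without cluster 8 and within clusters were chosen after seeing the data. The scripts were tested on simulated data.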

Additional observations from a re-analysis of the deposited data

Results flagged for a closer look

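Fbln5 differed in direction between classes when B6 was set against WT. The ratio was 1.95 in epitenon-like cells. It was 2.52 in macrophage-like cells, which serve as background here and had a low level in both libraries (6.60 and 16.6 CPM). In endothelial-like cells it was 0.619 (63.8 and 39.5 CPM, from 82 and 46 UMIs), and the intervals of these levels overlapped. In nerve-like cells it was 0.510 (122 and 62.1 CPM, from 61 and 32 UMIs). With 1 library per group, this difference between classes was not tested.

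Fbln1 in epitenon-like cells stood on opposite sides of WT in the other libraries, at 0.399 times its level in DTR and 1.62 times in B6. Both ratios share the WT library, and their difference was not tested.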

How the results depend on the processing

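Of 34 log2 ratios of members between libraries or classes, 26 kept their sign and 25 their side of the fold under 8 other settings and without cluster 8. Of 306 alternative values, 193 lay within the counting interval of the reported value, the rest outside it, and 17 had the other sign, spread over 8 ratios. The 1 of these that was past its fold and counted as reversed was Fbln7 in epitenon-like against tenocyte-like cells of WT, with a log2 ratio of 1.33 over all cells and -0.78 in cells called male. The other 7 were Efemp1, Fbln2 and Fbln7 in single epitenon-like comparisons and Fbln2, Fbln5 (both comparisons) and Hmcn2 in tenocyte-like cells, all with a reported log2 ratio under the fold. Against WT in tenocyte-like cells of DTR, the log2 ratio ranged from 3.7 to 4.2 for Fbln7, from 2.90 to 3.93 for Hmcn1 and from -0.69 to -0.22 for Fbln1. The count of members past 1.5-fold there was 1 in place of 2 with a minimum of 20 CPM. In tenocyte-like cells of B6 it was 4, but 1 with a minimum of 20 CPM, and 2 each with classes from clusters, with the top doublet scores left out, in cells called male and with the stricter gate. These settings left 6 members at 5 CPM or more, and 5 at 20 CPM, in place of 8, so fewer were counted: the log2 ratios themselves stayed past the fold under every one of the 9 settings, at no less than 1.78 for Fbln7, 1.45 for Efemp1, 1.27 for Hmcn1 and 1.39 for Hmcn2. For the counts under other settings no share of all genes is given, so they are not set against one. Fbln1 in epitenon-like cells of B6 was under the fold with classes from clusters (log2 0.54), and Fbln5 in those of DTR lay at the fold (0.37 to 1.03). Hmcn2 in epitenon-like cells of DTR also lay at the fold (-0.68 to -0.49). Of 45 values within single clusters, 7 lay within the interval of the reported value, the rest outside it, and 11 had the other sign. Of those 11, Hmcn1 in DTR in cluster 0 had a reported ratio past the fold (log2 -0.0063 against 3.30 over all clusters, from 4 UMIs), and the others were Fbln1, Fbln2, Fbln5 and Hmcn2. Of 48 alternative shares of positive cells, 47 moved, since they count other UMIs per cell. Low counts limit Hmcn1, Efemp1 and Hmcn2 in tenocyte-like cells. No paired analysis was possible because each group is 1 library and no result comes from a test.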
